A study of Mus musculus with 3 samples.

Results

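The Wnt genes described here are 47 genes of secreted Wnt ligands, their Frizzled and Lrp receptors, extracellular antagonists, feedback genes and TCF/LEF effectors. They were chosen by gene symbol as a named list of the pathway; the choosing rule holds no measured value, but earlier results of these data were known when the list was made. In all, 28039 named genes had a value on every array, of which 21257 were well above background on at least 1 array. All 47 Wnt genes had a probe, 64 probes in total, and 46 could be compared across the 3 days. The sole probe of Wnt11 was marked as non-uniform by the scanner software on day 0, so Wnt11 entered none of the counts, and its values are given apart. Of the 46, 43 were well above background on at least 1 array, and Wnt10b, Dkk4 and Wif1 were not well above background on any.

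The cells were E14.1, a line of mouse embryonic stem (ES) cells, and their total RNA, labelled with Cy3, was measured with 1 one-colour Agilent array per day. Day 0 ES cells grew in serum-free medium on gelatin with BMP4 at 10 ng/ml and LIF at 1000 U/ml. Day 5 cells, labelled definitive endoderm, had been kept on collagen IV with activin A at 30 ng/ml in place of BMP4 and LIF. Day 7 cells, labelled early hepatic, had 2 more days in activin A at 30 ng/ml with BMP4 at 30 ng/ml and bFGF at 10 ng/ml. No group was given a Wnt ligand or a Wnt inhibitor in the stated media. The series set out to view expression around the transcription factor Foxa2 at these 3 stages of one cell line. There were no replicates, so no difference below has a replicate check or a p-value, and array and day cannot be told apart.

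Wnt proteins are lipid-modified secreted ligands that bind a Frizzled receptor together with Lrp5 or Lrp6, which stabilises beta-catenin and lets it act with TCF/LEF factors on target genes. Sfrp proteins and Frzb bind Wnts outside the cell, Dkk proteins bind the Lrp co-receptors, and Axin2, Notum and Apcdd1 are feedback inhibitors that the pathway itself can switch on. In the mouse embryo Wnt3 is needed for the primitive streak, from which endoderm arises, and secreted antagonists are made by the anterior endoderm.

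A log2 signal below is the processed intensity of a probe relative to its array's 75th percentile (intensities of 1564, 2051 and 2053 on days 0, 5 and 7), so 0 is that percentile. Levels of different probes are not comparable with each other. Higher and lower stand for a difference of at least 2-fold between 2 arrays, with the brighter value well above background. A value that was not well above background was raised to the detection limit of its array (the lowest signal among probes well above background) unless it already lay higher, and the difference is then written as at least N-fold. Each array had 43379 gene spots, 70.9 to 71.7% of them well above background, and the median spread of repeat spots of a probe was 0.077 to 0.083 (SD, log2), which is technical only. Marker signals were summed per list, in units of the 75th percentile. ES cell markers summed to 160, 7 and 1.9 on days 0, 5 and 7, and all 5 definitive endoderm markers were higher on days 5 and 7 than on day 0. Early hepatic markers summed to 0.117, 0.7 and 27.3, although the albumin gene Alb was dim on day 7. Markers of other cells moved too: mesenchyme markers summed to 3, 1.56 and 17.7, and extraembryonic endoderm markers to 5.7, 26.8 and 102. A sum follows its brightest probes, such as Lamb1 in the extraembryonic list, at log2 signals of 2.06, 4.57 and 4.97. In that list 5 of 7 genes were higher and Sox7 was 2.1-fold lower on day 5 than on day 0. Among mesenchyme markers, 6 of 7 were higher and Thy1 was 11.2-fold lower on day 7 than on day 0. Cardiac and lateral mesoderm markers summed to 6.48, 30 and 16.8. Of these 6 markers, 5 were higher on day 7 than on day 5, and Myl7 was lower, at a log2 signal of 4.86 and then 2.70. The part of those cells in the Wnt gene differences was not tested. Fewer cells of a type and less RNA per cell cannot be told apart in RNA of whole cultures.

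The probes are shown for the genes whose probes carry most of what follows, first for 4 genes with large differences. The Dkk1 probe lies at chr19:30621424-30621483 on the minus strand, the Frzb probe at chr2:80252582-80252641 on the minus strand, the Wnt3 probe at chr11:103677409-103677468 on the plus strand and the Dkk2 probe at chr3:131842357-131842416 on the plus strand (all mm9).
Dkk1: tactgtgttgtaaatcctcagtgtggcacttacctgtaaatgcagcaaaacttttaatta
Frzb: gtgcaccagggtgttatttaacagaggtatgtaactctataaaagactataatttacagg
Wnt3: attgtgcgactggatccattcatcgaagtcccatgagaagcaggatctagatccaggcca
Dkk2: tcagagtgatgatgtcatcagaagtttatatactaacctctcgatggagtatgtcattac

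The next pairs are shown because their probes differed in what they measured, or because they resemble each other. The Fzd5 probe used here lies at chr1:64779196-64779255 and the other at chr1:64781972-64782030, both on the minus strand. The Wnt9a probe used here lies at chr11:59146696-59146755 and the other at chr11:59144511-59144570, both on the plus strand. The Fzd2 probe at chr11:102467613-102467672 and a Fzd7 probe at chr1:59541367-59541426, both on the plus strand, shared a run of 14 bases, shown in capitals, and 42 of 50 aligned bases (84.0%). Among 1936 pairs of probes for different Wnt genes, the next longest shared run was 11 bases.
Fzd5, used: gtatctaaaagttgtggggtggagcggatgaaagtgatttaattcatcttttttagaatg
Fzd5, other: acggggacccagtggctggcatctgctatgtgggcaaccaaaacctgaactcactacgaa
Wnt9a, used: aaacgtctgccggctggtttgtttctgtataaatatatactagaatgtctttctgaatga
Wnt9a, other: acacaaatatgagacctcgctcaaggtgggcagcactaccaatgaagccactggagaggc
Fzd2: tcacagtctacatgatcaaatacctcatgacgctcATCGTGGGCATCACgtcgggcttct
Fzd7, other: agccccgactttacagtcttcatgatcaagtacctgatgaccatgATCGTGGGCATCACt

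In day 5 definitive endoderm, 19 of the 43 Wnt genes (44.2%) were higher than in day 0 ES cells and 6 (14%) were lower. The shares among all genes tested were 16.5% higher and 16.1% lower. The median difference of the Wnt genes was 0.64 (log2), against -0.11 over all genes tested. In day 7 early hepatic cells, 23 Wnt genes (53.5%) were higher than in ES cells and 6 (14%) were lower, against 16.2% and 19.1% of all genes, with a median of 1.33 against -0.19. Day 7 cells had 10 Wnt genes (23.3%) higher and 7 (16.3%) lower than day 5 cells, against 5.99% and 8.44% of all genes, with a median of 0.06 against -0.06. Of the higher calls, 4, 5 and 1 in these 3 comparisons rest on a detection limit.

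**Figure D1:**
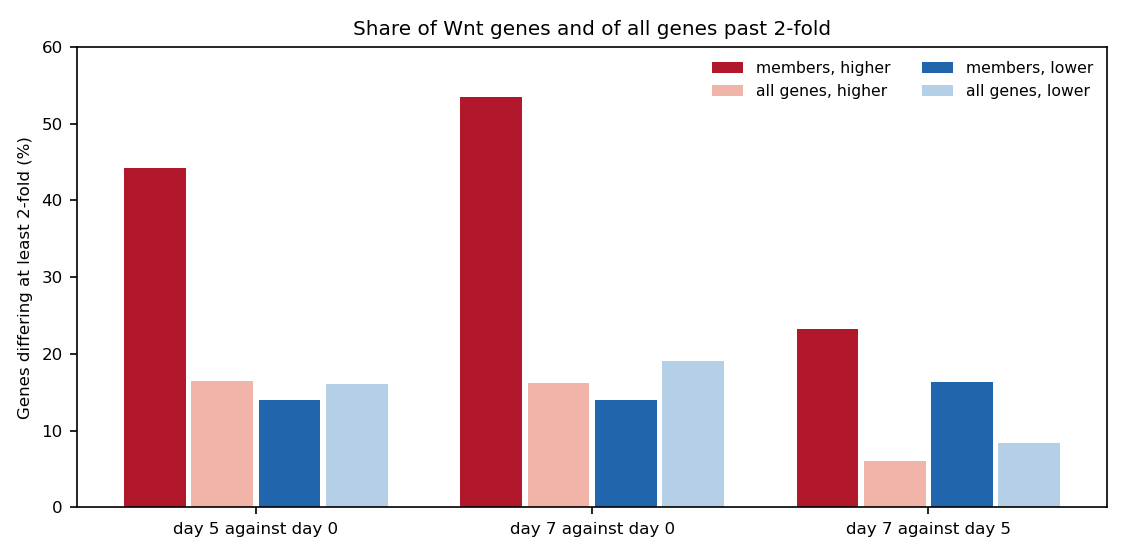
Bars give the percentage of Wnt genes (dark) and of all genes tested (pale) that were at least 2-fold higher (red) or lower (blue) in each of the 3 comparisons, with 1 array per day and hence no error bars. The share of higher Wnt genes was 44.2%, 53.5% and 23.3%, while the share of lower Wnt genes lay between 14% and 16.3%.

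The count of higher genes depends on the background correction. With limma's normexp correction fitted on all spots of each array, 7 Wnt genes were higher and 20 lower on day 5 than on day 0, and 43.8% of all genes were then lower. That fit put the mean background at -1240, -12.7 and -344 intensity units on days 0, 5 and 7, where the 153 negative control spots had medians of 15.4, 11.6 and 12.5. It also shifted the 9589 probes that were dim on every array by a median of -3.84 (log2) on day 5 against day 0, compared with 0.06 for the processed signal. With normexp fitted on the negative control spots instead, a choice made after seeing these values, 15 were higher and 6 lower. Below, refitted normexp means the fit on all spots.

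**Figure D2:**
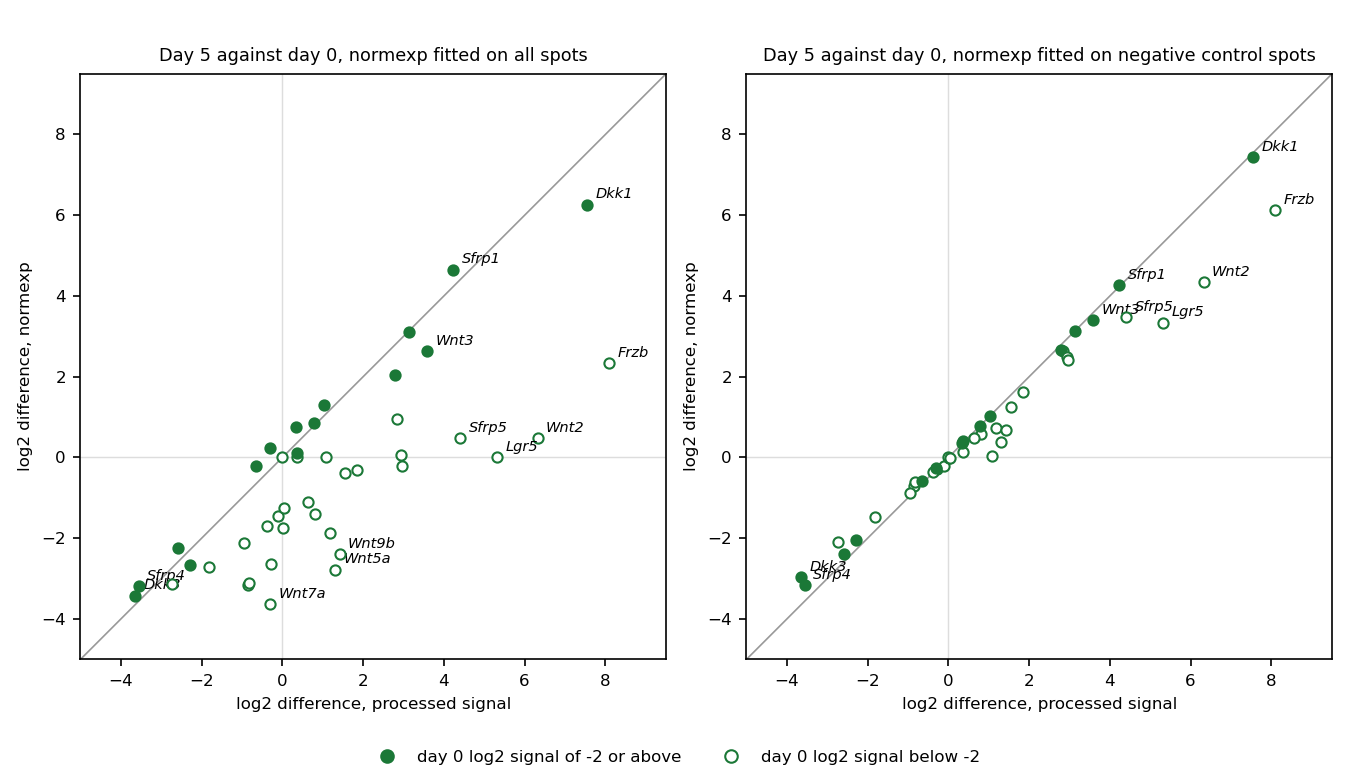
Each point is a Wnt gene, with its day 5 minus day 0 log2 difference from the processed signal on the horizontal axis and from normexp on the vertical axis, fitted on all spots (left) or on negative control spots (right). Open points had a low day 0 signal, and in the left panel they lie below the diagonal more than the filled ones. Dkk1, Sfrp1 and Wnt3 lie well above 0 in both panels.

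Of the 16 ligand genes above background, 7 (43.8%) were higher and 2 (12.5%) lower on day 5 than on day 0, against 16.5% and 16.1% of all genes. On day 7, 10 (62.5%) were higher and 1 (6.25%) lower than on day 0, against 16.2% and 19.1% of all genes, and 6 (37.5%) were higher and 0 lower than on day 5, against 5.99% and 8.44%. The called ligands fall into genes that were higher by day 5, genes that were level on day 5 and higher on day 7, and 2 neighbouring genes that were lower on day 5. Wnt3 had a log2 signal of -1.29, 2.30 and 2.70 on days 0, 5 and 7. It was 12.1-fold higher on day 5 and 15.9-fold higher on day 7 than on day 0, and its other probe gave 12.2-fold and 13.5-fold. Both probes thus put Wnt3 lower in ES cells than on both later days, and these calls held under every alternative tried with a 2-fold limit. Wnt2, whose close relative Wnt2b has a zebrafish counterpart needed for liver specification, was not well above background on day 0 (-8.70) and stood at -0.46 on day 5 and -0.40 on day 7. Day 5 exceeded day 0 by at least 79.8-fold, and day 7 by at least 83.2-fold. Wnt2 was nearly level between days 7 and 5, 1.04-fold apart. Wnt2b itself was above background only on day 5, at -6.42, close to the detection limit.

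Wnt5a, a ligand best known for signalling without beta-catenin, had log2 signals of -5.65, -4.35 and -2.76 on days 0, 5 and 7. Each later day was higher, by 2.46-fold on day 5 than on day 0 and by 3.01-fold on day 7 than on day 5. Wnt9a showed the same order, at -3.08, -1.23 and -0.09, with 3.60-fold on day 5 than on day 0 and 2.21-fold on day 7 than on day 5. Its other probe, near the detection limit at -6.13, -6.74 and -6.66, showed no difference past 2-fold, so the Wnt9a result rests on 1 of 2 probes. Wnt8a, a ligand of the early primitive streak, stood at -4.21, -3.02 and -2.54 and was 2.28-fold higher on day 5 and 3.18-fold higher on day 7 than on day 0. Wnt9b stood at -5.43, -4.01 and -3.67, 2.68-fold and 3.40-fold higher than on day 0. Wnt16 was not well above background on day 0 (-6.83) and stood at -5.71 and -4.77 on days 5 and 7, at least 2.10-fold and at least 4.02-fold higher than on day 0. These dim ligands are where the background correction decides: refitted normexp ended the calls of Wnt2, Wnt5a, Wnt8a, Wnt9a, Wnt9b and Wnt16 against day 0 on both later days. The fit on negative controls ended the day 5 calls of Wnt5a, Wnt8a, Wnt9b and Wnt16 and the day 7 calls of Wnt9b and Wnt16 against day 0.

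Wnt3a, Wnt4 and Wnt5b were higher on day 7 than on both earlier days by the probes used. Wnt3a, a beta-catenin ligand of the posterior streak and tailbud, stood at -4.41, -5.24 and -1.55 on days 0, 5 and 7, 12.8-fold higher on day 7 than on day 5. Wnt4, known for kidney and gonad development, stood at -3.95, -4.23 and -1.04, 9.16-fold higher on day 7 than on day 5. Wnt5b stood at -2.16, -2.28 and -1.10, 2.28-fold higher on day 7 than on day 5, while its other probe gave 1.89-fold against day 5 and 1.46-fold against day 0, so both Wnt5b calls rest on 1 of 2 probes. Against day 0, day 7 was 7.24-fold higher for Wnt3a, 7.53-fold for Wnt4 and 2.09-fold for Wnt5b, and refitted normexp ended those 3 calls but none of the calls against day 5. The fit on negative controls (0.96, log2) and the median over probes (0.81, log2) also ended the Wnt5b call against day 0. On the same arrays 6 of 7 mesenchyme markers and 6 of 7 extraembryonic endoderm markers were higher on day 7 than on day 5. So were 5 of 6 cardiac and lateral mesoderm markers and 4 of 5 early hepatic markers, against 5.99% of all genes. Of the 5 definitive endoderm and 5 ES cell markers, 0 were higher. Which cells carried these ligands was not tested.

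Wnt6 and Wnt10a are neighbours, with probes 19.3 kb apart on the plus strand of chromosome 1, and both were lower on day 5. Wnt6 stood at 0.19, -2.39 and -0.23 on days 0, 5 and 7, 5.98-fold lower on day 5 than on day 0 and 4.48-fold higher on day 7 than on day 5. Its other probe gave 14-fold lower and 10.7-fold higher. Wnt6 was therefore low on day 5 alone, with day 7 within 2-fold of day 0 by both probes. Wnt10a stood at -2.41, -4.22 and -3.70, 3.51-fold lower on day 5 and 2.44-fold lower on day 7 than on day 0. Further pairs of neighbours differed from each other. Wnt9b and Wnt3 probes lie 88.5 kb apart on chromosome 11 and both genes were higher on day 5, whereas Wnt3a and Wnt9a probes lie 85 kb apart on the same chromosome and only Wnt9a was called on day 5 against day 0.

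The remaining ligands that could be compared had no difference past 2-fold between days. Wnt1 stood at -4.34, -5.20 and -5.03 on days 0, 5 and 7 and Wnt7b at -2.27, -2.66 and -2.79. Wnt7a was above background on day 0 only, at -6.46. Wnt10b was dim on all arrays, at -7.68, -7.65 and -7.01, which sets only a bound. Wnt11, a ligand of cell movement in gastrulation, was well above background on all arrays at 1.88 (the marked spot), 0.44 and -0.21, and was 0.65 lower (log2) on day 7 than on day 5.

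**Figure D3:**
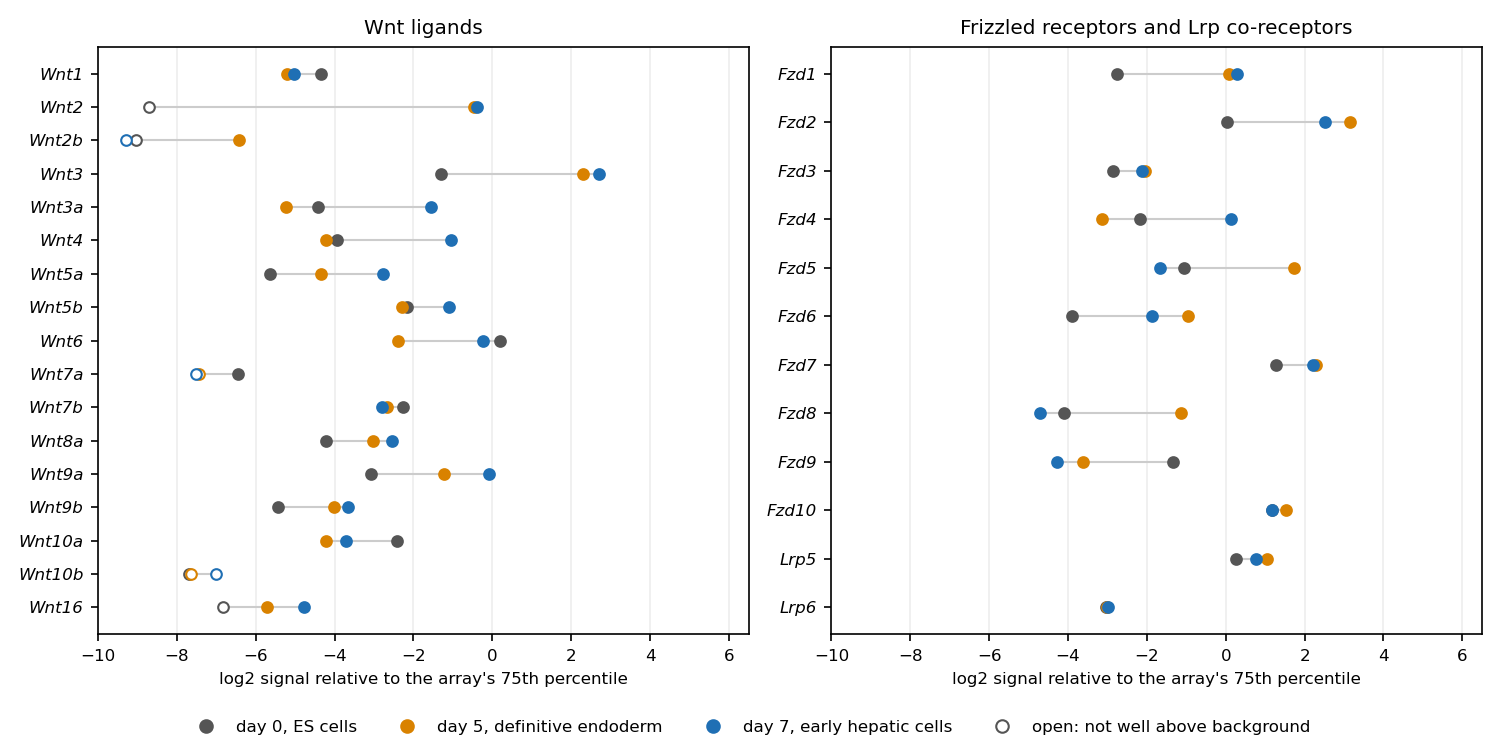
Log2 signal relative to the array's 75th percentile of each ligand (left) and receptor (right) on day 0 (grey), day 5 (orange) and day 7 (blue), 1 array per day, with open circles not well above background. Wnt2 has an open day 0 point at -8.70 and both later days near the 75th percentile, and Fzd5 and Fzd8 have day 5 to the right of both other days.

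All 12 receptor genes were well above background on all 3 arrays. On day 5, 6 Frizzled genes (50% of the receptors) were higher than on day 0 and 1 (8.33%) was lower, against 16.5% and 16.1% of all genes. On day 7, 4 (33.3%) were higher and 1 (8.33%) lower than on day 0, against 16.2% and 19.1% of all genes. Fzd1 stood at -2.75, 0.09 and 0.28 on days 0, 5 and 7, 7.17-fold higher on day 5 and 8.17-fold higher on day 7 than on day 0. Fzd2 stood at 0.02, 3.15 and 2.53, 8.74-fold and 5.68-fold higher than on day 0, and its other probe, dim on day 0, gave at least 7.08-fold and at least 3.51-fold. Fzd6 stood at -3.89, -0.95 and -1.87, 7.66-fold and 4.07-fold higher than on day 0. These receptors were thus lower in ES cells than on both later days. Refitted normexp ended both Fzd6 calls and the day 5 call of Fzd1.

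Fzd7, a Wnt receptor of mouse ES cells, stood at 1.28, 2.30 and 2.22 on days 0, 5 and 7 by its brighter probe, 2.03-fold higher on day 5 and 1.92-fold higher on day 7 than on day 0. Its other probe, the one that resembles the Fzd2 probe, gave 6.77-fold and 4.20-fold. The brighter probe lies at the 2-fold limit, and scaling to the median of probes ended its call (0.96, log2). How far Fzd2 transcripts bind the Fzd7 probe was not tested.

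Fzd5 and Fzd8, a closely related pair of receptors, were higher on day 5 than on both other days by the probes used. Fzd5 stood at -1.05, 1.73 and -1.66 on days 0, 5 and 7, 6.88-fold higher on day 5 than on day 0 and 10.5-fold lower on day 7 than on day 5. Its other probe stood at -2.06, -1.83 and -4.39, which is 1.17-fold on day 5 against day 0 and 5.91-fold lower on day 7 than on day 5. That probe was also 5.05-fold lower on day 7 than on day 0, where the first was 1.52-fold lower, within the limit. Both Fzd5 probes were therefore lower on day 7 than on day 5, and only the first was higher on day 5 than on day 0. Fzd8 stood at -4.09, -1.14 and -4.71, 7.77-fold higher on day 5 than on day 0 and 11.9-fold lower on day 7 than on day 5. Its other probe was above background only on day 5 and gave at least 18-fold and at least 21.4-fold. Refitted normexp ended the Fzd8 call of day 5 against day 0 (-0.20) and kept that of day 7 against day 5.

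Fzd4 and Fzd9 ran otherwise. Fzd4 stood at -2.18, -3.15 and 0.13 on days 0, 5 and 7, 9.68-fold higher on day 7 than on day 5 and 4.96-fold higher on day 7 than on day 0, the second of which refitted normexp ended. Fzd9 stood at -1.33, -3.61 and -4.28, 4.86-fold lower on day 5 and 7.73-fold lower on day 7 than on day 0. It was the single Frizzled called lower than in ES cells by the probes used, although the other Fzd5 probe was also lower on day 7. The co-receptors were within 2-fold on all days, at 0.26, 1.05 and 0.76 for Lrp5 and at -3.03, -3.01 and -2.99 for Lrp6. Fzd3 stood at -2.85, -2.04 and -2.13 and Fzd10 at 1.18, 1.52 and 1.17, also within 2-fold, although the dimmer Fzd3 probe was 2.06-fold higher on day 5 than on day 0.

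Of 9 antagonist genes above background, 4 (44.4%) were higher and 2 (22.2%) lower on day 5 than on day 0, against 16.5% and 16.1% of all genes, so that the share of lower antagonists was near that of all genes. On day 7, 5 (55.6%) were higher and 3 (33.3%) lower than on day 0, against 16.2% and 19.1% of all genes. On day 7 against day 5, 2 (22.2%) were higher and 5 (55.6%) lower, against 5.99% and 8.44%. All 4 that were higher on day 5 (Dkk1, Sfrp1, Sfrp5 and Frzb) were lower on day 7 than on day 5 while still higher than on day 0.

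Dkk1, which binds Lrp5 and Lrp6 and is needed for head formation in the mouse, had log2 signals of -1.99, 5.55 and 3.96 on days 0, 5 and 7, from intensities of 394, 96132 and 31957. Day 5 was 186-fold and day 7 61.7-fold higher than day 0, and day 7 was 3.01-fold lower than day 5. Its other probe, at -4.24, 4.78 and 2.64, gave 520-fold, 118-fold and 4.40-fold lower. Both probes put Dkk1 lowest in ES cells and highest in definitive endoderm, and no alternative with a 2-fold limit changed these calls. Frzb, a Wnt-binding protein of the Sfrp family, was not well above background on day 0 (-7.25) and stood at 1.30 on day 5 and -1.15 on day 7. Day 5 was at least 272-fold and day 7 at least 49.5-fold higher than day 0, and day 7 was 5.49-fold lower than day 5.

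Sfrp1 stood at 1.24, 5.47 and 3.34 on days 0, 5 and 7, 18.7-fold higher on day 5 than on day 0 and 4.36-fold lower on day 7 than on day 5, with 22.1-fold and 4.61-fold by its other probe. Sfrp5, a marker of early foregut endoderm in the mouse, stood at -4.80, -0.39 and -1.60, 21.2-fold higher on day 5 than on day 0 and 2.31-fold lower on day 7 than on day 5. Both Wnt-binding genes were thus highest on day 5. Against day 0, day 7 was 4.29-fold higher for Sfrp1 and 9.20-fold higher for Sfrp5. Refitted normexp ended all 3 Sfrp5 calls and the day 7 against day 0 call of Frzb, and none for Dkk1 or Sfrp1. On the same arrays 3 of 5 definitive endoderm markers and 4 of 5 ES cell markers were lower on day 7 than on day 5. That compares with 8.44% of all genes. Among cardiac and lateral mesoderm markers 1 of 6 was lower, and 0 of the early hepatic, mesenchyme and extraembryonic endoderm markers were. Which cells carried these antagonists was not tested.

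Other antagonists were lower after ES cells. Sfrp4 stood at -0.32, -3.87 and -4.60 on days 0, 5 and 7, 11.7-fold lower on day 5 and 19.5-fold lower on day 7 than on day 0. Sfrp2 stood at 1.10, 0.44 and -0.78, 3.68-fold lower on day 7 than on day 0 and 2.34-fold lower on day 7 than on day 5. The Sfrp genes therefore split, with Sfrp1, Sfrp5 and Frzb higher and Sfrp2 and Sfrp4 lower on day 7 than on day 0 under all 3 between-array scalings tried, although refitted normexp put Sfrp5 at -0.29 (log2). Dkk3, a divergent member of the Dkk family, stood at -1.35, -4.99 and -3.91, 12.5-fold lower on day 5 and 5.91-fold lower on day 7 than on day 0. Day 7 was 2.11-fold higher than day 5 for Dkk3, a call that the normexp fit on negative controls ended (0.74, log2).

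Dkk2 was dim on days 0 (-9.09) and 5 (-7.79) and stood at -1.10 on day 7. Day 7 exceeded day 5 by at least 50.7-fold and day 0 by at least 51.3-fold, so 3 Dkk genes each had their highest signal on a different day: Dkk3 on day 0, Dkk1 on day 5 and Dkk2 on day 7. Refitted normexp ended the Dkk2 call against day 0 (0.17, log2) and kept that against day 5. Kremen1, a cell surface receptor for Dkk proteins, stood at -2.11, -2.08 and -2.23, within 2-fold on all days. Dkk4 and the Wnt-binding protein gene Wif1 were dim on every array, between -9.27 and -7.70, which sets only a bound on their signal.

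**Figure D4:**
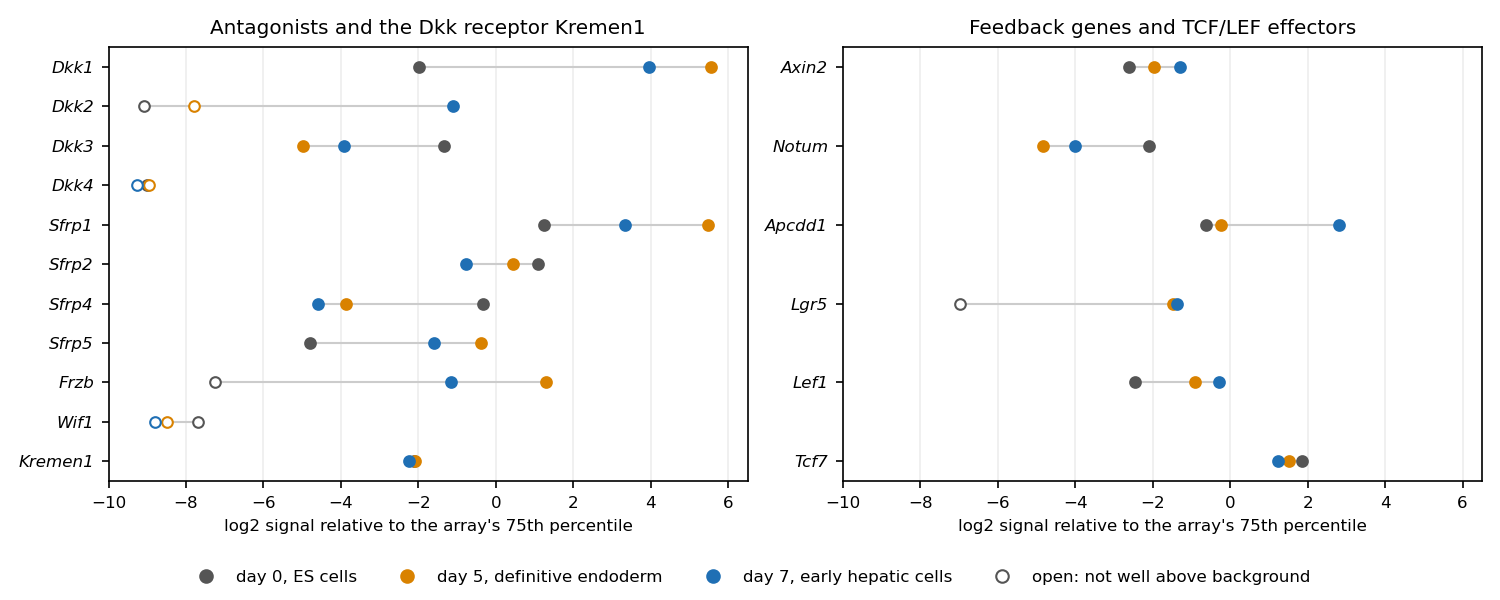
Log2 signal relative to the array's 75th percentile of the antagonists with Kremen1 (left) and of feedback genes and effectors (right) on day 0 (grey), day 5 (orange) and day 7 (blue), 1 array per day, with open circles not well above background. Dkk1, Sfrp1, Sfrp5 and Frzb run from day 0 on the left through day 7 to day 5 on the right, and Dkk2 and Apcdd1 have day 7 alone at the right.

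Among the 4 feedback genes, too few for a share to be read, 1 was higher and 1 lower on day 5 than on day 0, and 3 were higher and 1 lower on day 7 than on day 0. Axin2, a scaffold of the beta-catenin destruction complex and a widely used target gene, stood at -2.62, -1.98 and -1.29 on days 0, 5 and 7. It was 1.56-fold higher on day 5, short of the limit, and 2.51-fold higher on day 7 than on day 0, a call that refitted normexp reversed (-0.22, log2). Notum, an enzyme that removes the lipid from Wnt proteins, stood at -2.10, -4.83 and -4.02, 6.64-fold lower on day 5 and 3.78-fold lower on day 7 than on day 0. The feedback genes thus did not move together, since Notum was lower where Axin2 was level or higher.

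Apcdd1, a membrane protein that inhibits Wnt signalling, stood at -0.62, -0.24 and 2.82 on days 0, 5 and 7, 10.8-fold higher on day 7 than on day 0 and 8.37-fold higher on day 7 than on day 5. Its other, dimmer probe gave 2.14-fold and at least 4.79-fold, and at least 2.24-fold lower on day 5 than on day 0 where the first probe was level. Lgr5, a receptor for R-spondins, was not well above background on day 0 (-6.97) and stood at -1.47 on day 5 and -1.38 on day 7, at least 39.7-fold and at least 42.4-fold higher than on day 0. A second probe named Lgr5, from a separate cDNA clone, was dim on all arrays. Refitted normexp put both Lgr5 differences at 0.00, the value set where the later day lay below the day 0 bound. It is no measured equality. The fit on negative controls kept both calls, at 3.34 on day 5 and 3.43 on day 7 (log2).

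The effector Lef1 stood at -2.45, -0.90 and -0.30 on days 0, 5 and 7, 2.92-fold higher on day 5 and 4.43-fold higher on day 7 than on day 0. A second probe named Lef1, also from a separate cDNA clone, was dim on all arrays, and taking the median over both probes ended the day 5 call, as did refitted normexp for both days. Tcf7 was within 2-fold throughout, at 1.84, 1.52 and 1.24, and its other probe gave differences of the same signs.

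Across the 43 genes, the most common course after within 2-fold on both steps (11 genes) was higher on day 5 and within 2-fold from there to day 7, also 11 genes: Wnt2, Wnt3, Wnt8a, Wnt9b, Wnt16, Fzd1, Fzd2, Fzd6, Fzd7, Lgr5 and Lef1. A day 5 peak, higher than day 0 and then lower on day 7, was found for 6 genes (Fzd5, Fzd8, Dkk1, Sfrp1, Sfrp5 and Frzb). These are Frizzled receptors or antagonists. The other Fzd5 probe was level on day 5 against day 0 (0.23, log2). Refitted normexp ended that call for Fzd8 (-0.20) and both steps for Sfrp5 (0.47 and -0.76, log2). Another 6 genes were within 2-fold on day 5 against day 0 and higher on day 7 than on day 5 (Wnt3a, Wnt4, Wnt5b, Fzd4, Dkk2 and Apcdd1). Only Wnt6 and Dkk3 were lower on day 5 and then higher on day 7. Sfrp2 alone was within 2-fold on the first step and lower on the second. All these courses are those of the probes used and the processed signal, and several changed with another probe or background correction, as given above. The 2 comparisons behind these courses share the day 5 array. The shares of all genes that took each course were not computed, so these counts describe the listed genes only.

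Of the 17 genes with a second probe, 11 had the same call from both on day 5 against day 0, 11 on day 7 against day 0 and 14 on day 7 against day 5. No gene had opposite calls from its 2 probes. The genes with different calls on day 5 against day 0 were Wnt9a, Fzd3, Fzd5, Apcdd1, Lgr5 and Lef1.

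**Figure D5:**
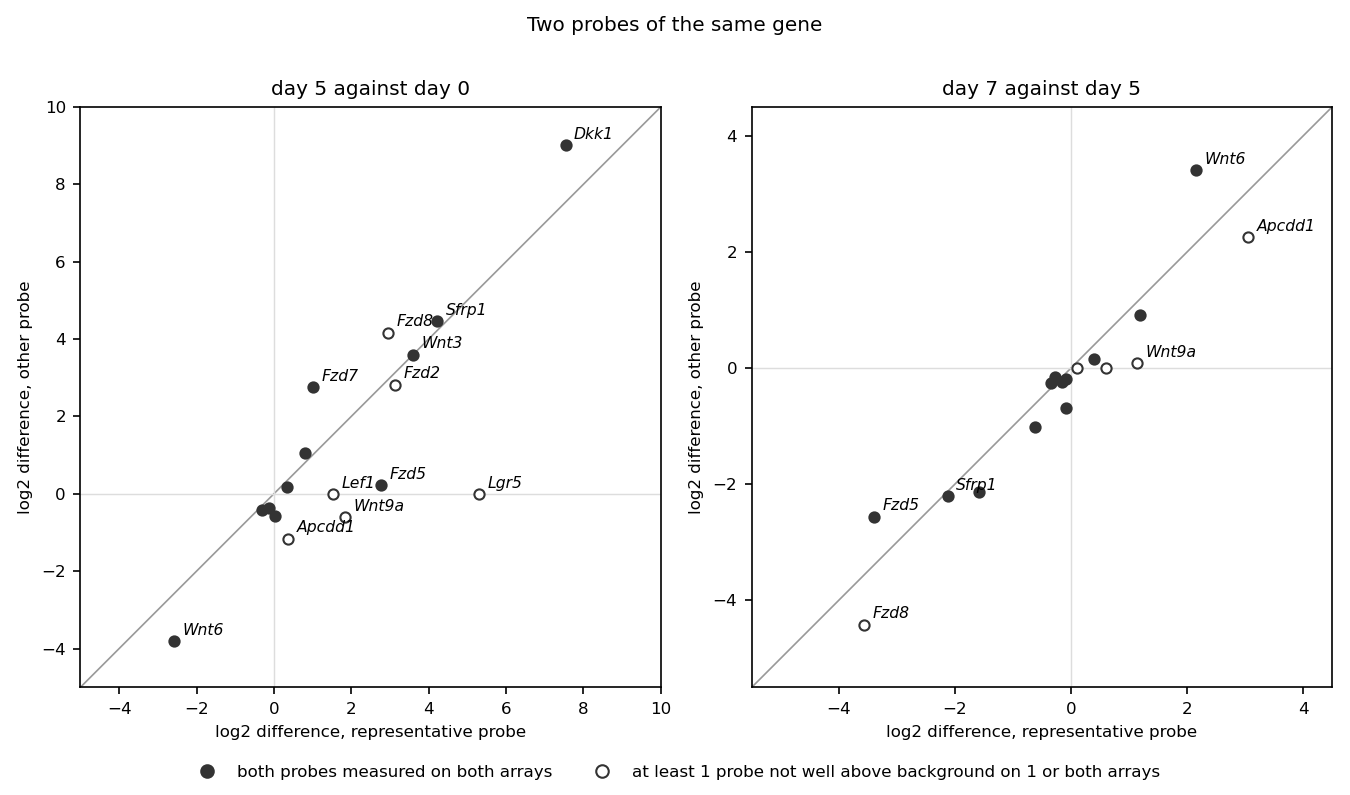
Each point is a gene with 2 probes, with the log2 difference of the representative probe on the horizontal axis and of the other probe on the vertical axis, for day 5 minus day 0 (left) and day 7 minus day 5 (right). Part of the points lie near the diagonal line of equal values. Fzd5, Lgr5, Lef1, Wnt9a, Apcdd1 and Wnt6 lie below it in the left panel, and Fzd7, Dkk1 and Fzd8 above it.

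Promoter windows of RefSeq (GRCm38.p6, 250 bases before to 50 after the annotated start) were available for 29 of the 47 genes. They were searched on both strands for words that TCF/LEF and forkhead factors are known to bind. The TCF/LEF word CTTTGAA was in 5.14% of all 32851 windows in the table. Among the 36 windows of the Wnt genes it was in 1, that of Dkk1. A second TCF/LEF word, CTTTGAT, was in 3.73% of all windows and in those of Wnt5b and Wnt11. The forkhead word TGTTTAC was in 3.65% of all windows and, of the Wnt genes, in that of Tcf7. Of the 19 genes higher on day 5, 12 had a window, and 1 of these held the first word. A match in such a window is no measured binding site. The Dkk1 window lies at chr19:30549447-30549746 on the minus strand (GRCm38.p6), holds 60.7% G and C, and is shown 5′ to 3′ with the word in capitals at position -117 from the start.
Dkk1 promoter: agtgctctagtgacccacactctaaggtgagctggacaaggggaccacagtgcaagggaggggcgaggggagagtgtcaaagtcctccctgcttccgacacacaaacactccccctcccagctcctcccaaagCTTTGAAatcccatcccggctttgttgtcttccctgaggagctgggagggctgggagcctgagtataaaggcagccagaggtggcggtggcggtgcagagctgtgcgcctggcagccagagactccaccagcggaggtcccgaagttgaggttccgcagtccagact

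Of 61 other genes of the pathway, 58 were above background on at least 1 array. On day 5, 20 (34.5%) were higher and 5 (8.62%) lower than on day 0, against 16.5% and 16.1% of all genes. On day 7, 21 (36.2%) were higher and 10 (17.2%) lower than on day 0, against 16.2% and 19.1% of all genes, so that the lower share was near that of all genes. On day 7 against day 5, 8 (13.8%) were higher and 10 (17.2%) lower, against 5.99% and 8.44%. Both genes of ligand export were higher. Porcn, which attaches the lipid to Wnt proteins, stood at -2.18, 1.45 and 1.60 on days 0, 5 and 7, 12.4-fold higher on day 5 and 13.7-fold higher on day 7 than on day 0. Wls, the carrier that takes Wnts to the cell surface, stood at -0.78, 3.23 and 4.51, 16.1-fold and 39.1-fold higher. The destruction complex had 2 of 11 genes (18.2%) higher and 0 lower on day 5 than on day 0, near the 16.5% of all genes that were higher, and 0 of 11 called on day 7 against day 5. Beta-catenin itself (Ctnnb1) stood at 4.81, 5.15 and 4.79 and was within 2-fold on all days.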

How the data were processed

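Cy3-labelled RNA of 3 samples was hybridised to 1 array each. The deposited scanner files hold a linear intensity for each spot, extracted by the authors with Agilent Feature Extraction 10.5.1.1, with probe positions on mm9, per the file headers. The background-corrected processed signal was used. The authors' deposited table of values is log2 intensity, whose columns share the same distribution (median 7.1678 in each column, correlating across probes with the scanner values at r = 0.9998 or above). It is uncentred, and how the columns were equalised was not given in the sources used here.

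The log2 signals of an array were set relative to the array's 75th percentile over gene spots. Control spots and spots marked as outliers (104 to 131 on days 5 and 7, 149 on day 0) were left out, spots of 1 probe were averaged, and no gene spot was saturated. A probe was well above background when over 50% of its spots carried that mark, and the probe above background on most arrays, then the brightest, stood for its gene. Genes were named from the files, Wls, Tcf7l1, Lamb1 and Tfec through their accession. A dim value was set to the higher of itself and the lowest signal well above background on that array (-6.78, -6.76 and -7.04 on days 0, 5 and 7), and 2 dim values were given a difference of 0. A difference was also set to 0 where the value well above background lay below the bound of the dim one. With 1 array per day there is no test: calls are differences of at least 2-fold. The members, lists and alternatives were chosen with earlier results of these data known. Every member is accounted for; other pathway genes are named where they are the 2 highest or 2 lowest past 2-fold of their list in a comparison, apart from Ctnnb1 and Celsr3, named after their values were seen. The calling code was run on simulated arrays with changes planted in bright probes and noise the size of the repeat-spot spread. That run checks the code only, not the spread between samples or the calls on dim probes. Alternatives covered background correction (limma 3.58.1 in R 4.3.3), scaling, probe choice, filter, naming and the authors' table. Python 3.11.15 was used.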

Additional observations from a re-analysis of the deposited data

How the results depend on the processing

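Of 71 called differences of the Wnt genes, 38 kept their call under every alternative with the 2-fold limit that gave them a value, 10 for most and 9 for Frzb and Dkk2, which were dim on at least 1 array (12 of 25 on day 5 against day 0, 12 of 29 on day 7 against day 0 and 14 of 17 on day 7 against day 5). For a gene with 1 probe that was above background on every array, the alternatives of probe choice and filter could not change the value. Most losses came from normexp fitted on all spots, which ended 12, 17 and 1 of the 71 calls. It gave 7 genes higher and 20 lower on day 5 against day 0, 7 higher and 12 lower on day 7 against day 0, and 17 higher on day 7 against day 5. It reversed Wnt5a (-2.78), Wnt8a (-1.87), Wnt9a (-0.31), Wnt9b (-2.40), Fzd8 (-0.20) and Lef1 (-0.38) on day 5 against day 0. On day 7 against day 0 it reversed Wnt3a (-0.24), Wnt5a (-0.96), Wnt5b (-0.13), Wnt8a (-0.85), Wnt9b (-1.17), Fzd6 (-0.42), Sfrp5 (-0.29) and Axin2 (-0.22), all log2. The fit on negative control spots, added after seeing the data, ended 4, 3 and 1 calls and reversed none. With a 4-fold limit, 12 genes were higher on day 5 and 3 lower on day 7 than on day 0, and 6 were higher and 4 lower on day 7 than on day 5. The median over probes ended 4 calls (Wnt5b on day 7 and Lef1 on day 5 against day 0, and Wnt9a on day 5 against day 0 and on day 7 against day 5) and scaling to the median ended that of Fzd7. The median of all genes lay between -0.18 and -0.05 on day 5 against day 0 over the scalings tried. Signal over background limits the dim genes, which have bounds only. No replicate could be left out, and biological spread is unknown. No paired analysis was possible because each day has 1 array.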

Other observations

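Other genes of the pathway also differed. Cer1, an antagonist of the anterior endoderm that binds Wnt, Nodal and BMP proteins in Xenopus, was not well above background on day 0 (-8.92) and had log2 signals of 5.45 and -2.23 on days 5 and 7. It was 205-fold lower on day 7 than on day 5, and its difference on day 5 against day 0 was at least 12.23 (log2). Shisa2, which retains Frizzled proteins inside the cell, stood at -0.42, 3.34 and -1.18, 13.5-fold higher on day 5 than on day 0 and 22.9-fold lower on day 7 than on day 5. Igfbp4, which can bind Wnt receptors, was 5.46-fold higher on day 7 than on day 0, a difference that normexp fitted on all spots reversed (-0.45, log2). Rspo3, a ligand of the Lgr receptors, was dim on day 0 and stood at -4.83 and -1.76 on days 5 and 7, so that day 7 exceeded day 0 by at least 32.4-fold and day 5 by 8.40-fold. Rnf43, the ligase that removes Frizzled receptors, stood at -2.33, -0.33 and 0.84, 4-fold higher on day 5 and 9-fold higher on day 7 than on day 0. With normexp fitted on all spots, the Rnf43 call on day 5 (0.10, log2) and both Rspo3 calls against day 0 were lost.

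The Wnt-binding proteoglycan genes Gpc3 and Gpc4 were 8.40-fold and 18.9-fold higher on day 5, and 16.8-fold and 12.5-fold higher on day 7, than on day 0. The Wnt5a receptor gene Ror1, dim on day 0, stood at -2.99 and -4.36 on days 5 and 7. Day 5 thus exceeded day 0 by at least 13.8-fold, and Ror1 was 2.58-fold lower on day 7 than on day 5. Normexp fitted on all spots gave 0.00 and 0.40 (log2), the 0.00 being the value set where a bound changes sign. Kremen2 was 2.30-fold lower on day 5 and 2.38-fold lower on day 7 than on day 0, and both calls were lost with the fit on negative controls (-0.86 and -0.90, log2). Lgr6 was above background on day 0 only (-5.34) and Rspo2 on day 7 only (-5.34), and their calls were lost with the fit on negative controls. In the destruction complex, Csnk1e was 3.56-fold higher on day 5 and 2.39-fold higher on day 7 than on day 0. Gsk3b was 2.06-fold and 2.20-fold higher, and Csnk1a1 2.19-fold lower on day 7 than on day 0, all at the limit and lost under several alternatives. Among nuclear factors, Tcf7l2 stood at 0.71, 3.88 and 2.57 on days 0, 5 and 7, 8.94-fold higher on day 5 than on day 0, while the co-repressor gene Tle4 stood at 5.07, 3.35 and 2.82, 3.29-fold lower on day 5 than on day 0. The related Tle2 stood at -2.91, 0.17 and -1.25, 8.46-fold higher on day 5 than on day 0 and 2.68-fold lower on day 7 than on day 5. Pygo1 was lower on day 5 than on day 0 by at least 2.11-fold, a call lost with the fit on negative controls (-0.54, log2). Of the target genes, Sp5 was 20.7-fold higher on day 5 and 11.3-fold higher on day 7 than on day 0, and Nkd1 was 2.45-fold and 7.78-fold higher, its day 5 call being lost with normexp fitted on all spots (0.41, log2). Cdx2, a caudal and trophectoderm factor, stood at -1.96, -6.19 and 0.71, 18.8-fold lower on day 5 than on day 0 and 119-fold higher on day 7 than on day 5. Myc was 3.16-fold and Nkd2 3.03-fold lower on day 7 than on day 5, the second of which normexp fitted on all spots ended (-0.27, log2). Of 9 planar polarity genes, 3 (33.3%) were higher and 0 lower on day 5 than on day 0, against 16.5% and 16.1% of all genes, with Prickle1 5.21-fold and Prickle2 5.39-fold higher. The Prickle2 call was lost with normexp fitted on all spots (-1.27, log2) and with the median over its probes (0.12, log2). On day 7, 4 planar polarity genes (44.4%) were higher and 3 (33.3%; Celsr1, Celsr2 and Celsr3) lower than on day 0, against 16.2% and 19.1% of all genes. Against day 5, Celsr1 was 4.63-fold and Celsr2 2.43-fold lower and Daam2 2.38-fold higher on day 7; normexp fitted on all spots put Celsr2 at 0.04 and the fit on negative controls put Daam2 at 0.56 (log2).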
